A study of Mus musculus with 6 samples.

Results

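The genes described here are 37 genes of the cell cycle and of DNA replication, chosen by name, out of 16426 genes in a table of mouse liver RNA sequencing. They were split by role into 9 genes of G1, 13 genes of S phase and 15 genes that act mainly in mitosis or are switched on shortly before it. The labels describe bulk liver RNA of 6 male C57/BL mice. Of these, 3 are labelled as a model of liver fibrosis, made by exposure to 20% carbon tetrachloride (CCl4) over 10 weeks, and 3 are labelled as normal controls that received saline. CCl4 is a solvent that hepatocytes convert to toxic radicals. The design text also names mice given CCl4 and the flavonoid didymin, which none of the 6 labels describes.

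The authors' deposited table sets 3 libraries, named ly_A, against 3 others, named ly_B. Labels of the samples use neither name, so which treatment each set received is not known here, and each value below is a difference of ly_A from ly_B and is not given as an effect of CCl4. The 18 columns of single libraries were left out, since no column could be tied to a labelled sample, and no value per mouse, no level and no read depth is given. The labelled tissue was not checked against the levels of its marker genes. Log2 fold changes are ly_A over ly_B, so a value below 0 means higher in ly_B. Genes are described as called where the adjusted p lay under 0.05. Of 14114 genes tested in the authors' deposited table, 18.1% were called higher in ly_A and 17.7% higher in ly_B. At an unadjusted p under 0.05 the shares of all tested genes were 22.9% and 21.6%.

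Most hepatocytes of the adult liver rest outside the cell cycle and can re-enter it after injury. In G1, D-type cyclins with CDK4 or CDK6 phosphorylate the retinoblastoma protein RB, which frees E2F factors, and cyclin E with CDK2 completes the step into S phase. E2F factors switch on genes for the MCM helicase, the polymerase clamp and nucleotide synthesis. Later the MuvB complex, with B-Myb and FOXM1, switches on the mitotic genes through a promoter element called CHR, often beside CCAAT boxes bound by NF-Y. In resting cells the same MuvB core, joined to an RB relative and a repressive E2F as the DREAM complex, keeps these genes off.

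Promoters of the members are shown first because the elements of this division can be read from them without any expression value. RefSeq windows of 300 bases, 250 before and 50 after the annotated start (build GRCm38.p6), were matched by symbol for 30 of the 37 members. Windows were searched on both strands for E2F motifs, spelled TTCCCGC with the variants TTGGCGC and then TTCGCGC besides TTGCCGC. The CHR motifs searched were TTTGAA and the variant TTCGAA, and the CCAAT box was searched by its name's letters. Where TTGGCGC and the reverse of TTCGCGC overlap in one stretch, both count as matches. Of 12 S phase members with a window, 8 held an E2F motif (66.7%), against 18.2% of the 11006 tested genes with a window and 9.57% of all 32851 windows. CHR motifs were found in 10 of 12 mitotic members (83.3%), against 16.8% of the tested genes and 19.2% of all windows. CCAAT boxes were found in 11 of 12 mitotic members (91.7%), against 42.6% of the tested genes and 37.4% of all windows. Among the 6 G1 members with a window, Cdk2 held E2F motifs and a CCAAT box, Ccnd3 held a CCAAT box, and the other 4 held no match. These shares describe letters in a window, with no test, and a match is not a bound site.

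**Figure D1:**
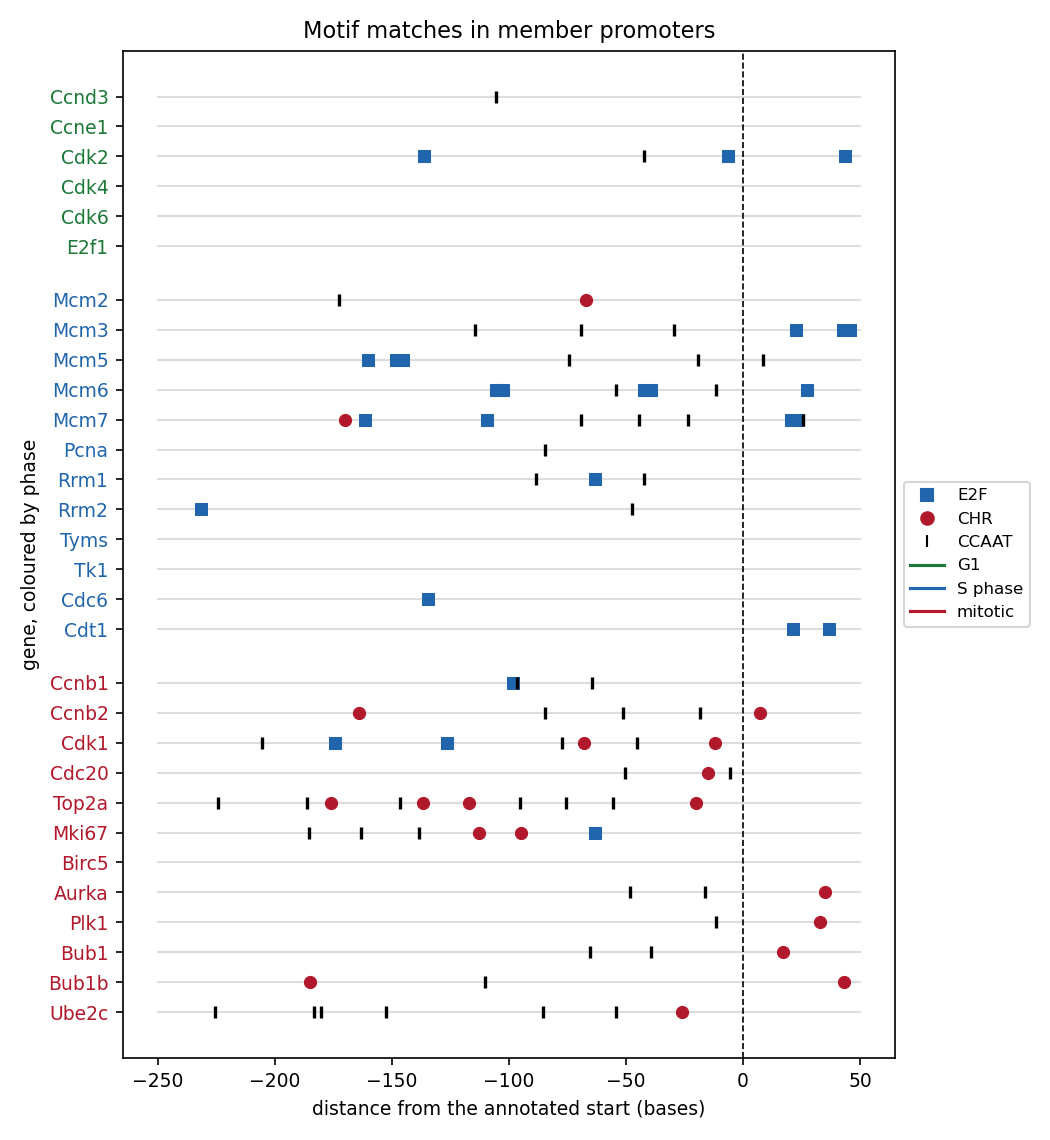
Matches to the E2F, CHR and CCAAT motifs by distance from the annotated start, in bases, for the 30 members with a RefSeq promoter window, with gene names coloured by phase. Squares for E2F lie in 8 of the 12 S phase members and circles for CHR in 10 of the 12 mitotic members. Empty lines belong to 7 members, Birc5, Ccne1, Cdk4, Cdk6, E2f1, Tk1 and Tyms.

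The windows of 5 members are shown because they hold the patterns described and because 4 of these genes were called. Capitals mark the matched motifs. Mcm6 (chr1:128359656-128359955, minus strand) holds E2F motifs and CCAAT boxes, Mcm2 (chr6:88898731-88899030, minus strand) holds a CHR motif and a CCAAT box, and Top2a (chr11:99024140-99024439, minus strand) has the most CHR motifs of the 12 mitotic windows and shares the highest number of CCAAT boxes with Ube2c. Tk1 (chr11:117825965-117826264, minus strand) and Birc5 (chr11:117848987-117849286, plus strand), the 2 members called higher in ly_A, hold none of the motifs searched. This is not particular to them. In all, 7 of the 30 members with a window held none, among them Ccne1 and Cdk6, which were called higher in ly_B.
Mcm6: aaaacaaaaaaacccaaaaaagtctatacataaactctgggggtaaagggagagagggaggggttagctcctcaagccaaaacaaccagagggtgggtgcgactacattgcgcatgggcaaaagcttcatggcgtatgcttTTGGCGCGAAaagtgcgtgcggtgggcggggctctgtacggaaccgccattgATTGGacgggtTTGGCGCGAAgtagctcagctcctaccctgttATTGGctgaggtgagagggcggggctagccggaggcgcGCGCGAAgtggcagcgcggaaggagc
Mcm2: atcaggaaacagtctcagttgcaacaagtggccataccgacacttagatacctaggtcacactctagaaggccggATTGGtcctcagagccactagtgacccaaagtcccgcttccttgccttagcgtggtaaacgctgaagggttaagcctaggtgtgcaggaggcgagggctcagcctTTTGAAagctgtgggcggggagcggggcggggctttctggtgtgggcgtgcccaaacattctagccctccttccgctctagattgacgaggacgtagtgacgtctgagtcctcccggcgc
Top2a: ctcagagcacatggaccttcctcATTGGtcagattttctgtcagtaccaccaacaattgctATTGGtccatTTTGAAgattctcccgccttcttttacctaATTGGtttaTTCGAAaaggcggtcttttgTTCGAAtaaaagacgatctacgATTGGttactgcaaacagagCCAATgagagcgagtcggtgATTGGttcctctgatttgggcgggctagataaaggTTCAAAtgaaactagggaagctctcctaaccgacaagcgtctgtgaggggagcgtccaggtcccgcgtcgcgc
Tk1: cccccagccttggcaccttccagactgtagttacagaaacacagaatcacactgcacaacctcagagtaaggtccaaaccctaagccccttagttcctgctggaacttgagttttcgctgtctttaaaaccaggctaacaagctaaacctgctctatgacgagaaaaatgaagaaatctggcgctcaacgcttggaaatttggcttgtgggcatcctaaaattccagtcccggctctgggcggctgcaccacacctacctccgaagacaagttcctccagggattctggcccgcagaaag
Birc5: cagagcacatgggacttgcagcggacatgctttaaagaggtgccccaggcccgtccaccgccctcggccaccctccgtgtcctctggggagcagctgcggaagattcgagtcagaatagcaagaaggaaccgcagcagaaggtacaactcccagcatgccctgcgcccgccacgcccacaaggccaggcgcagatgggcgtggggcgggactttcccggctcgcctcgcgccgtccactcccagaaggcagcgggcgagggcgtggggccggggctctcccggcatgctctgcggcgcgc

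Of the 37 members 36 were tested, and 2 were called higher in ly_A and 6 higher in ly_B in the authors' deposited table. The members' share was 5.56% for ly_A and 16.7% for ly_B, beside 18.1% and 17.7% of all tested genes. At an adjusted p under 0.01 the same 2 and 6 members were called, beside 12.3% and 12.7% of all tested genes, and with p adjusted over all 16426 rows, beside 15.0% and 14.6%. With at least a 2-fold difference as well, 2 were called higher in ly_A and 5 in ly_B, or 5.56% and 13.9%, beside 10.9% and 7.85%. At an adjusted p under 0.1, a limit chosen after the values were seen, the counts were 4 and 7, or 11.1% and 19.4%, beside 22.0% and 20.9%. The 2 higher in ly_A were Tk1 and Birc5, and the 6 higher in ly_B were Ccnd1, Ccne1, Cdk6, Mcm2, Mcm6 and Pcna. Over the G1 members the log2 fold changes of the authors' deposited table had a median of -0.44, over the S phase members -0.47 and over the 14 tested mitotic members 0.62, beside 0.07 over all tested genes. In bulk tissue, more cells of a kind and more RNA per cell cannot be told apart. The difference between the phases was not tested, since genes of one phase are not independent.

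**Figure D2:**
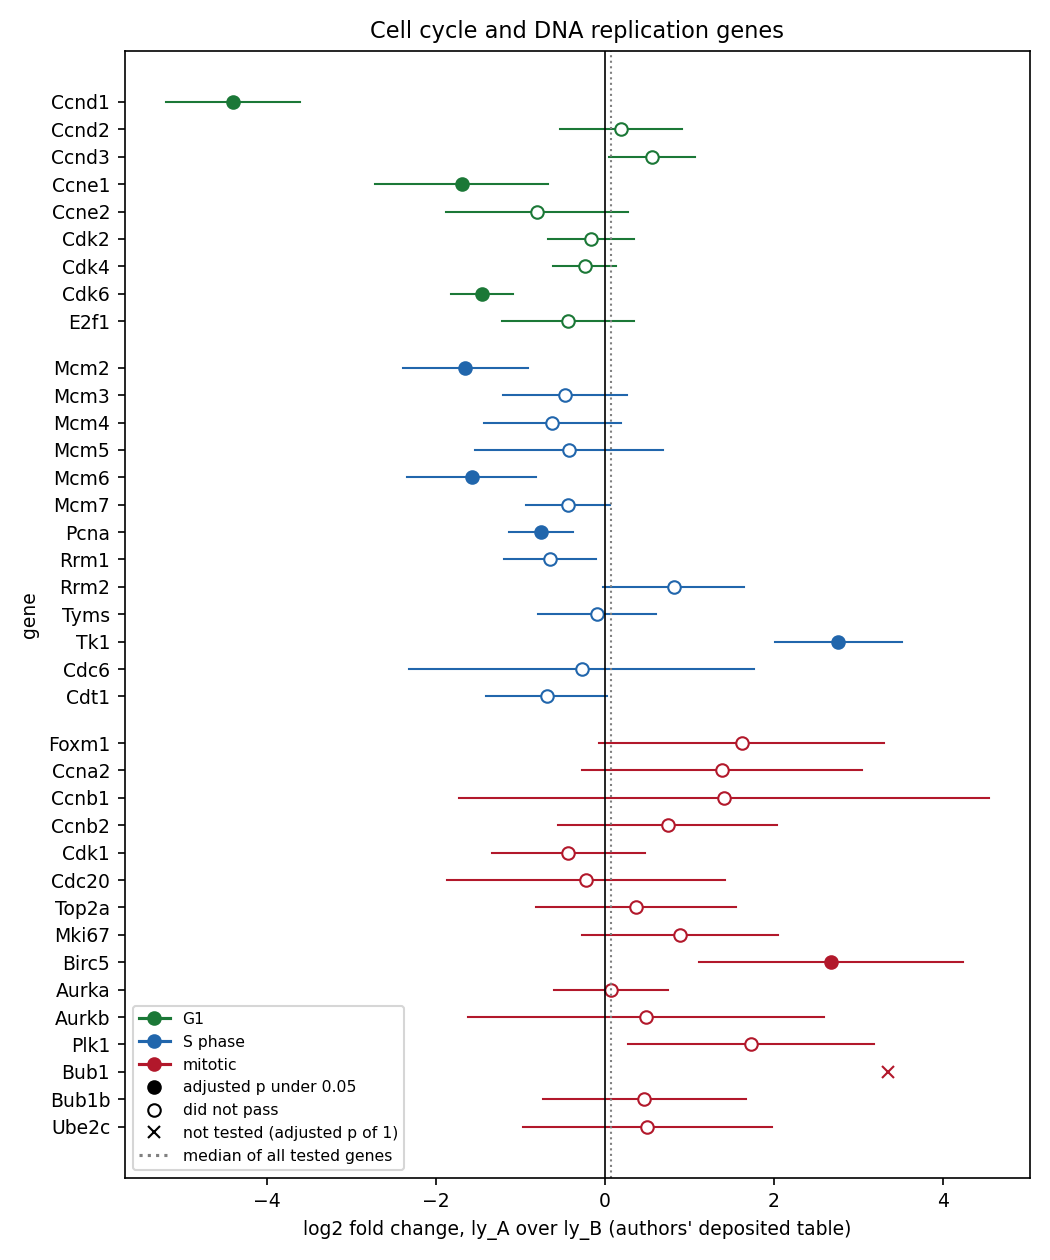
Log2 fold change of ly_A over ly_B for the 37 members in the authors' deposited table, grouped by phase; filled points passed an adjusted p of 0.05, open points did not, and the cross is Bub1, listed with an adjusted p of 1. Lines are 95% intervals implied by the deposited p if it is a Wald p. Values below 0 number 7 of 9 in G1 and 11 of 13 in S phase, beside 6626 of all 14114 tested genes. Values above 0 number 12 of 14 among the tested mitotic members, beside 7488 of all 14114 tested genes.

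Among the 9 G1 genes, 0 were called higher in ly_A, 3 were called higher in ly_B (33.3%) and 6 were not called. Beside these shares stand 18.1% and 17.7% of all tested genes. These calls are from the authors' deposited table, made with DESeq2 per the submitters' processing notes. At an unadjusted p under 0.05 1 of the 9 was higher in ly_A, Ccnd3, and 3 in ly_B, beside 22.9% and 21.6% of all tested genes. Cyclin D1, Ccnd1, stood apart from the other D cyclins. The authors' deposited table gave it a log2 fold change of -4.41, a 21.2-fold higher level in ly_B (adjusted p = 5.06e-25), and its adjusted p ranked 38 of 14114. Ccnd2 had a log2 fold change of 0.18 (adjusted p = 0.732) and Ccnd3 one of 0.56 (adjusted p = 0.077) in the authors' deposited table, and neither passed. The D cyclins bind the same kinases, and 1 of the 3 genes was called.

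The table holds no standard error. If the deposited p is a two-sided Wald p, the usual test of DESeq2, it implies one, and the intervals below rest on that assumption. The implied 95% interval was -5.20 to -3.61 for Ccnd1, -0.54 to 0.91 for Ccnd2 and 0.05 to 1.07 for Ccnd3, on the log2 scale from the authors' deposited table. The interval of Ccnd1 did not overlap those of the other D cyclins. Differences between genes of the same libraries were not tested.

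Cyclin E1, which activates CDK2 at the end of G1, was also higher in ly_B. Ccne1 had a log2 fold change of -1.70, or 3.25-fold (adjusted p = 0.00498), in the authors' deposited table. Its relative Ccne2 stood at -0.80 and did not pass (adjusted p = 0.255), with an implied interval of -1.88 to 0.28 that contains the value of Ccne1, computed from the authors' deposited table. Of the kinases, Cdk6 was 2.75-fold higher in ly_B (log2 -1.46, adjusted p = 6.16e-13) in the authors' deposited table. Cdk4 at -0.24 (adjusted p = 0.333) and Cdk2 at -0.17 (adjusted p = 0.638) were not called in the authors' deposited table. Their implied intervals, -0.61 to 0.13 for Cdk4 and -0.68 to 0.34 for Cdk2, contain no 2-fold difference in either direction, as computed from the authors' deposited table. E2f1, an activating E2F factor, stood at -0.44 and did not pass (adjusted p = 0.406) in the authors' deposited table.

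Of the 13 S phase genes, 1 was called higher in ly_A (7.69%) and 3 higher in ly_B (23.1%) in the authors' deposited table. The other 9 were not called. Beside these shares stand 18.1% and 17.7% of all tested genes. At an unadjusted p under 0.05 in the DESeq2 values the counts were 1 and 4, beside 22.9% and 21.6% of all tested genes. The MCM2 to MCM7 proteins form a ring of 6 subunits that unwinds DNA at the replication fork. All 6 of their genes had log2 fold changes below 0 in the authors' deposited table, between -1.65 and -0.42, and 2 of them passed. Values below 0 numbered 6626 of all 14114 tested genes. Mcm2 stood at -1.65, or 3.14-fold higher in ly_B (adjusted p = 0.000117), and Mcm6 at -1.58, or 2.98-fold (adjusted p = 0.000373), in the authors' deposited table. Mcm4 at -0.63, Mcm3 at -0.47, Mcm7 at -0.44 and Mcm5 at -0.42 were not called in the authors' deposited table (smallest adjusted p = 0.165, for Mcm7). The implied intervals of all 6 genes overlap. Such overlap does not show that the 6 genes changed alike, and differences between them were not tested. The interval of Mcm2, -2.40 to -0.91, overlaps least with that of Mcm7, -0.94 to 0.06, as computed from the authors' deposited table.

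Pcna, the sliding clamp of DNA polymerases, was 1.69-fold higher in ly_B (log2 -0.76, adjusted p = 0.000687) in the authors' deposited table. The MCM loading factors Cdt1 at -0.69 (adjusted p = 0.127) and Cdc6 at -0.28 (adjusted p = 0.862) were not called in the authors' deposited table. For Cdc6 the implied interval ran from -2.32 to 1.77, computed from the authors' deposited table, so a difference of more than 3-fold either way was not resolved.

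Of the 4 genes of nucleotide supply, 1 was called, Tk1. Ribonucleotide reductase needs a large and a small subunit. The large one, Rrm1, stood at -0.65 (adjusted p = 0.0508) and the small one, Rrm2, at 0.81 (adjusted p = 0.124) in the authors' deposited table, and neither passed. Their implied intervals, -1.20 to -0.11 for Rrm1 and -0.02 to 1.65 for Rrm2, did not overlap, also from the authors' deposited table. The difference between Rrm1 and Rrm2 was not tested. Tyms, thymidylate synthase of the de novo route, stood at -0.10 (adjusted p = 0.857) in the authors' deposited table. Tk1, thymidine kinase of the salvage route, was 6.77-fold higher in ly_A (log2 2.76, adjusted p = 4.1e-11) in the authors' deposited table. With an implied interval of 2.01 to 3.51, Tk1 lay apart from the other 12 S phase members in the authors' deposited table, of which the highest was Rrm2.

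Tk1 and Birc5 lie on chromosome 11 with the gene Afmid between them, by the GENCODE M21 annotation of GRCm38. Afmid encodes kynurenine formamidase, an enzyme of tryptophan breakdown. Afmid was 3.95-fold higher in ly_A (log2 1.98, adjusted p = 2.13e-06) in the authors' deposited table. Exons of Afmid and Tk1 overlap on opposite strands, and Birc5 starts within 10 kb of Afmid on the same strand as Afmid. The submitters' notes name build mm9 and no gene annotation, so whether the counted gene models overlap is not known. Whether reads were counted by strand is not given in the sources used here either. Reads of Tk1 and Afmid may therefore not have been told apart. The value of Tk1 is uncertain for this reason, and the part of Afmid in the values of Tk1 and Birc5 was not tested.

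Of the 14 tested mitotic genes, 1 was called higher in ly_A (7.14%) and 0 higher in ly_B in the authors' deposited table. The other 13 were not called. Beside these shares stand 18.1% and 17.7% of all tested genes. At an unadjusted p under 0.05 from the same DESeq2 table, 2 of the 14 were higher in ly_A, Birc5 and Plk1, and 0 in ly_B, beside 22.9% and 21.6% of all tested genes. Birc5, the survivin of the chromosomal passenger complex, was 6.37-fold higher in ly_A (log2 2.67, adjusted p = 0.00381) in the authors' deposited table, with an implied interval of 1.11 to 4.23. Aurkb, the kinase of the same complex, stood at 0.48 (adjusted p = 0.759) in the authors' deposited table, with an implied interval of -1.63 to 2.59. Plk1, the polo-like kinase that drives mitotic entry, stood at 1.73 (adjusted p = 0.0545), and Foxm1, the transcription factor of mitotic genes, at 1.62 (adjusted p = 0.131) in the authors' deposited table.

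The cyclins and the kinase of mitotic entry did not pass. The cyclins Ccnb1 at 1.41, Ccna2 at 1.38 and Ccnb2 at 0.74 had values above 0, while their kinase Cdk1 stood at -0.43 in the authors' deposited table (smallest adjusted p = 0.195). Mki67, which encodes the proliferation marker Ki-67, stood at 0.89 (adjusted p = 0.238), and Top2a, a topoisomerase that untangles sister chromatids, at 0.37 (adjusted p = 0.669) in the authors' deposited table. The spindle kinase Aurka at 0.07 and the checkpoint kinase gene Bub1b at 0.46 had adjusted p-values of 0.895 and 0.586 in the authors' deposited table. Of the genes that act on the anaphase-promoting complex, Ube2c, its ubiquitin-conjugating enzyme, stood at 0.50 (adjusted p = 0.636) and Cdc20, its activator, at -0.23 (adjusted p = 0.86) in the authors' deposited table. Bub1, a checkpoint kinase, had a value of 3.36 with an adjusted p listed as 1 in the authors' deposited table and was taken as not tested.

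Mitotic members had less precise values than the other members by the implied standard error. Computed from the authors' deposited table, the median implied standard error was 0.75 on the log2 scale over the 14 tested mitotic members. It was 0.38 over the S phase members, 0.37 over the G1 members and 0.29 over all tested genes. Differences of at least 2-fold that did not pass numbered 4 among the 14 mitotic members in the authors' deposited table (Foxm1, Ccna2, Ccnb1 and Plk1). They numbered 0 among the G1 and S phase members, beside 1240 of all 14114 tested genes. For Mki67 the implied interval of -0.27 to 2.05 holds both equal levels and a 4-fold higher level in ly_A, and that of Cdk1 ran from -1.34 to 0.47. How many reads lie behind these genes was not examined.

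**Figure D3:**
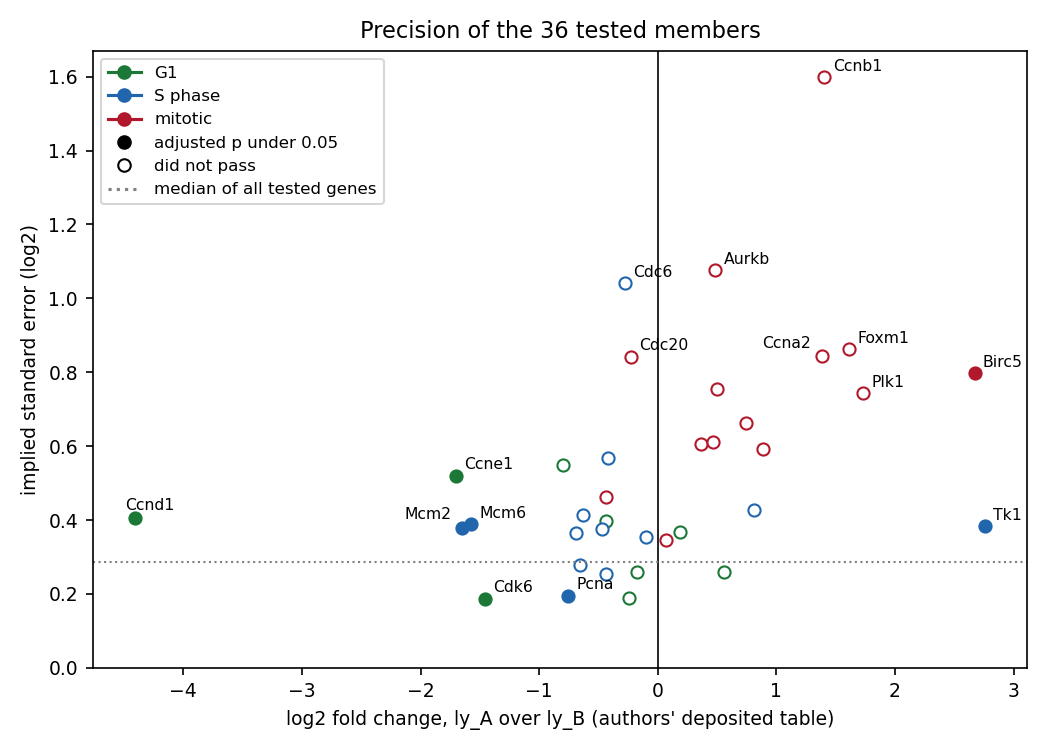
Log2 fold change of ly_A over ly_B in the authors' deposited table (x axis) against the standard error that the deposited p implies if it is a Wald p (y axis, log2 scale), for the 36 tested members. Mitotic genes in red lie mostly above the others, with a median of 0.75 against 0.38 for S phase and 0.37 for G1; the dotted line is the median of all tested genes, 0.29.

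Other cell cycle genes were described from 6 further lists of 103 genes, of which 99 were tested. Of these 99, the authors' deposited table listed 6 as higher in ly_A and 18 as higher in ly_B, which is 6.06% and 18.2%, beside 18.1% and 17.7% of all tested genes. The RB, E2F and MuvB list had 1 of 18 higher in ly_A and 7 of 18 higher in ly_B in the authors' deposited table, with a median of -0.48. Within it, E2f8, a repressive E2F that curbs the cell cycle, was 8.15-fold higher in ly_A (log2 3.03, adjusted p = 4.1e-11) in the authors' deposited table. The activating factor E2f2 was 5.60-fold higher in ly_B (log2 -2.49, adjusted p = 1.68e-05). E2f3 at -0.82, E2f4 at -0.80 and the MuvB genes Lin54 at -1.13 and Lin9 at -1.12 were also called higher in ly_B (adjusted p at most 0.0384). So was the RB relative Rbl1 at -1.20 (adjusted p = 0.04997, or 0.0582 when adjusted over all rows). Mybl1, which encodes A-Myb, was 8.11-fold higher in ly_B (log2 -3.02, adjusted p = 7.14e-07) in the authors' deposited table. Its relative Mybl2, the B-Myb of cycling cells, stood at 0.55 and did not pass (adjusted p = 0.563) in the authors' deposited table. Rb1 itself stood at -0.15 (adjusted p = 0.746) in the authors' deposited table.

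Further genes of DNA replication were called about as often as all genes towards ly_B. Of 17 genes of origin licensing and firing, 1 was higher in ly_A and 3 in ly_B in the authors' deposited table, or 5.88% and 17.6%. Of 22 genes of the replication fork, 0 were higher in ly_A and 4 in ly_B in the authors' deposited table, or 18.2% towards ly_B, beside 18.1% and 17.7% of all tested genes. At an unadjusted p under 0.05 in the DESeq2 values the origin list had 1 and 5 and the fork list 0 and 6, beside 22.9% and 21.6% of all tested genes. Dbf4, the activator of the origin-firing kinase CDC7, was 5.53-fold higher in ly_B (log2 -2.47, adjusted p = 2.94e-07), Gins3, of the helicase complex, stood at -1.84 (adjusted p = 0.0478, or 0.0556 when adjusted over all rows), and the replication factor Mcm10 was higher in ly_A at 1.80 (adjusted p = 6.65e-08) in the authors' deposited table. At the fork, the flap nuclease Fen1 at -1.69, the single-strand binding protein Rpa2 at -1.33 and the clamp loader subunit Rfc3 at -0.998 were higher in ly_B in the authors' deposited table (adjusted p at most 0.0191). Their direction was that of Mcm2, Mcm6 and Pcna.

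Brakes and switches of the cycle were called in both directions. Of 7 tested CDK inhibitors, 2 were higher in ly_A (28.6%) and 0 in ly_B, beside 18.1% and 17.7% of all tested genes. In the authors' deposited table the 2 were Cdkn2d at 1.17 and Cdkn1c at 1.05 (adjusted p at most 0.0189). At an unadjusted p under 0.05 in the DESeq2 values the counts were also 2 and 0, beside 22.9% and 21.6% of all tested genes. Cdkn1a, the p21 inhibitor induced by p53, stood at -0.15 (adjusted p = 0.74) in the authors' deposited table. Of 12 tested CDC25, WEE1 and checkpoint genes, 1 was higher in ly_A and 3 in ly_B in the authors' deposited table. Cdc25a, a phosphatase that activates CDK2, at -1.44 and Wee1, a kinase that restrains CDK1, at -1.28 were higher in ly_B, and Ccng2, a cyclin of resting cells, at 0.93 in ly_A in the authors' deposited table (adjusted p at most 0.0172). Myc, a growth factor-induced transcription factor, was 2.36-fold higher in ly_B (log2 -1.24, adjusted p = 0.000908) in the authors' deposited table.

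Of 23 tested spindle and kinetochore genes, 1 was higher in ly_A and 1 in ly_B in the authors' deposited table, 4.35% each, beside 18.1% and 17.7% of all tested genes, with a median of -0.01. Spc24, a kinetochore subunit, was higher in ly_A at 1.63 and Ect2, an exchange factor of cytokinesis, in ly_B at -2.65 (adjusted p at most 0.000975), from the authors' deposited table. Values above 0 numbered 11 of 23 in this list, beside 12 of 14 among the mitotic members, a difference that was not tested. Of all 14114 tested genes, 7488 had values above 0. Its median implied standard error was 0.70, computed from the authors' deposited table.

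**Figure D4:**
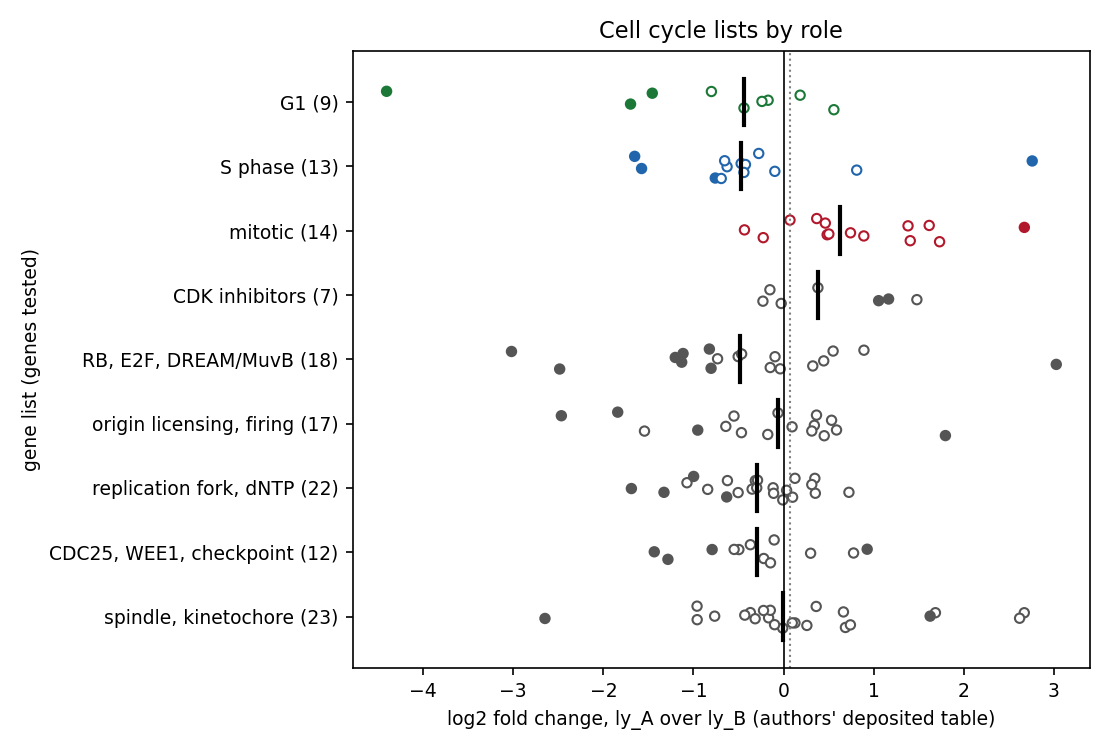
Log2 fold change of ly_A over ly_B in the authors' deposited table for the tested genes of the 3 member lists and of 6 further cell cycle lists; filled points passed an adjusted p of 0.05, black bars are list medians and the dotted line is the median of all tested genes, 0.07. The medians run from -0.48 for the RB, E2F and MuvB list to 0.62 for the mitotic members, and the spindle list is centred at -0.01.

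Markers of other liver cells also differed between the sets. Of the leukocyte markers 4 of 8, of the endothelial markers 3 of 4 and of the tested hepatocyte markers 3 of 4 were higher in ly_A in the authors' deposited table, with 0 of each higher in ly_B. Of the 5 cholangiocyte markers and the 4 tested stellate cell markers, 0 were higher in ly_A in the authors' deposited table. In ly_B 1 of each was higher, Sox9 and Pdgfrb. Beside these counts stand 18.1% of all tested genes called higher in ly_A and 17.7% in ly_B. At an unadjusted p under 0.05 in the DESeq2 values, the counts for the leukocyte, endothelial and hepatocyte markers were as above. At that limit 1 cholangiocyte marker was higher in ly_A and 1 in ly_B, and of the 4 stellate cell markers 0 were higher in ly_A and 3 in ly_B, beside 22.9% and 21.6% of all tested genes. Among the leukocyte markers the T cell gene Cd3e at 1.80, the B cell gene Cd79a at 1.62, the Kupffer cell gene Clec4f at 2.63 and the pan-leukocyte gene Ptprc at 0.86 passed in the authors' deposited table (adjusted p at most 0.0428). The other 4 were not called in the authors' deposited table, the monocyte gene Ly6c2 at 1.31, the macrophage genes Adgre1 at 0.33 and Cd68 at -0.20, and the myeloid gene Lyz2 at -0.10. Which cells the cell cycle transcripts came from, and the part of these cell types in the members' values, was not tested.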

How the data were processed

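Liver RNA was isolated with Trizol and made into NEBNext libraries, per the labels' protocols. DESeq2 (version not listed) and mouse build mm9 are named in the submitters' processing notes; for the aligner, counter and gene annotation, a name is not given in the sources used here. Each gene's log2 fold change, p-value and adjusted p-value were used as the authors deposited them. The names of the 18 single-library columns match no sample label. They were left out of every computation, and the count model planned for labelled columns was not fitted. The fold change was read as ly_A over ly_B, as the comparison is named; in the first lines read by eye, a value below 0 went with lower ly_A columns. Of 16426 rows, 2312 list an adjusted p of exactly 1. Over the other 14114, taken as tested, the adjusted p matches a Benjamini-Hochberg adjustment to within a relative 9.47e-13.

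The implied standard error is the absolute log2 fold change divided by the normal quantile of the two-sided p; the Wald test is assumed. Members and lists were chosen with earlier results of these data known. Named genes are all members, the 3 called genes of each other list with the largest difference (the 2 with the smallest p where fewer than 2 were called), and Cdkn1a, Rb1 and Myc. Afmid, Mybl2, E2f3, E2f4, Rbl1, Lin9, Lin54 and single marker genes were added after their values were seen. The adjustment and the motif search were tested on simulated data (Python 3.11.15, pandas 2.3.3, scipy 1.17.1). Nothing in the labels says that the 6 livers differ in batch, and no batch could be examined. Kif11 and Tf, which stand in the lists, were not analysed here.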

Additional observations from a re-analysis of the deposited data

How the results depend on the processing

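The 8 calls among the members held at an adjusted p under 0.01 and with p adjusted over all 16426 rows. With a 2-fold difference also required, 1 call was lost, Pcna. An adjusted p under 0.1, an alternative chosen after seeing the data, added 3 calls, Ccnd3 and Plk1 towards ly_A and Rrm1 towards ly_B. Of the other cell cycle genes named by the rule above, Cdkn2d, Gins3, Rfc3 and Wee1 lost their call at an adjusted p under 0.01. Gins3 also lost it with p adjusted over all rows, and Rfc3 and Ccng2 under the 2-fold requirement. The count of members higher in ly_A at an adjusted p under 0.1 was 4 of all members, 1 of the G1 genes and 2 of the mitotic genes. With windows of 250 bases before the start alone, E2F, CHR and CCAAT matches stood in 33.3%, 30.0% and 70.0% of members, against 40.0%, 40.0% and 70.0% in the full windows. In those shorter windows E2F motifs stood in 6 of the 12 S phase members, against 8 of 12 in the full windows, and CHR motifs in 7 of the 12 mitotic members, against 10 of 12. No paired analysis was possible because the columns of single libraries carry no label of a sample; these columns were left out, and the fits from counts, the filter on low counts and leaving out each replicate were not run. Depth and spread between mice were not examined, so the p-values are the authors' own, and low expression as a limit on the mitotic genes was not tested.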

Other observations

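Exons of 9 members overlap those of another gene in the GENCODE M21 annotation, and Tk1 was the one of the 9 that was called. Ccna2 at 1.38 shares exon bases with Exosc9, which was higher in ly_B at -1.08 (adjusted p = 0.00328), and Ccnd3 at 0.56 with Bysl, higher in ly_B at -1.04 (adjusted p = 6.57e-05), both in the authors' deposited table. Ccne2 at -0.80 shares exon bases with Ints8 at -0.58 (adjusted p = 0.0388) in the authors' deposited table. Mcm7 at -0.44 shares them with Ap4m1, higher in ly_A at 0.92 (adjusted p = 0.0233), in the authors' deposited table. Their part in the members' values was not tested.

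Of the 7 called members with a promoter window, 4 held none of the motifs searched, Ccne1, Cdk6, Tk1 and Birc5, and of all 30 members with a window 7 held none. The share of all tested genes that hold none was not computed. No window was used for Ccnd1.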
